A study of Arabidopsis thaliana with 25 samples.

Results

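The nuclear-encoded ribosomal RNAs (rRNAs) of the plant ribosome are the 25S, 5.8S and 5S rRNAs of the large subunit and the 18S rRNA of the small subunit. They were taken here as the rows of the methylation tables that name nuclear 25S rRNA, and as the nuclear entries of the rRNA reference table. The first rule gave 2 of 7 methylation sites, C2268 and C2860 of 25S rRNA, and the second gave 24 of 63 reference entries from 6 species. RNA bisulfite sequencing (RBS-seq) was used on total RNA of *Arabidopsis thaliana* seedlings of the Columbia ecotype, 10 days after germination. Under bisulfite an unmodified cytosine is deaminated and appears as thymine in the reads, whereas 5-methylcytosine (m5C) resists and appears as cytosine, so that the methylation level is the percentage of cytosine among the cytosines and thymines mapped to a position. Other causes of resistance to bisulfite give the same reading.

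Experiment 1 used seedlings grown on soil, with 3 libraries each of wild type, nop2a-2 (also named oli2-2), nop2b-1, nop2c-1 and nsun5-1, 2 libraries each of nop2c-2 and nsun5-2, and 1 library of nop2b-2. Experiment 2 used seedlings grown on plates, with 1 library for each of 5 genotypes, namely wild type, trm4b-1, trm4a, trdmt1 and a trdmt1 trm4b double mutant that carries the trm4b-1 allele. The mutants are T-DNA insertion lines, each allele being 1 line, and the study's methods and its primer list assign the insertion lines of nsun5-1 and nsun5-2, and those of nop2c-1 and nop2c-2, in opposite order. Allele names are used here as the labels give them. No transcript of the mutated genes was measured in these tables. The study itself examined mutants by RT-PCR and reports no transcript across the insertion in nsun5-2. Each genotype has 1 value for a site, which in experiment 1 was averaged by the authors across its libraries, so no spread between replicates can be given. The study lists total reads per library, but the tables used here give no reads at a site, and the depth behind a level is unknown. In every test below the unit is the genotype value, and p-values measure only the spread between such values.

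In yeast, the large subunit rRNA carries m5C at a pair of positions that match the *Arabidopsis* sites. Yeast RCM1, whose *Arabidopsis* homologue is NSUN5 (AT5G26180), methylates the counterpart of C2268. Yeast NOP2, a nucleolar protein that is also needed for rRNA processing, methylates the counterpart of C2860. *Arabidopsis* has 3 NOP2 paralogues, NOP2A (AT5G55920, symbol OLI2), NOP2B (AT4G26600) and NOP2C (AT1G06560). TRM4B (AT2G22400) and TRDMT1 (AT5G25480, symbol DNMT2) belong to families that methylate tRNA, and TRM4A (AT4G40000) is the paralogue of TRM4B.

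The sequences around both sites are shown because the conservation of these bases and the assay described below rest on them. They are read from the deposited 25S reference of 3375 nt as DNA letters, with 10 bases on each side and the methylated cytosine in capitals.
C2268, positions 2258 to 2278: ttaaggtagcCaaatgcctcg
C2860, positions 2850 to 2870: tttgatccttCgatgtcggct
C2268 is preceded by a cytosine and followed by an adenine, a context of 40 of the 823 cytosines of 25S rRNA (4.86%). C2860 lies between a thymine and a guanine, as do 71 of the 823 (8.63%). Each window holds 5 cytosines, of which only the central one is listed as a site, so the neighbouring base context was not shared and the number of cytosines was.

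At C2268, most genotypes had levels between 60% and 85%, and only the nsun5 mutants lay below this range. Wild type on soil had 66%. Of the nop2 mutants, nop2a-2 had 60%, nop2b-1 84%, nop2b-2 67.3%, nop2c-1 75% and nop2c-2 72.5%, so that 4 of 5 were above wild type. The nsun5 mutants had 2% (nsun5-1) and 29.2% (nsun5-2). In experiment 2 it was 76% in wild type, 85% in trm4a, 71% in trm4b-1, 77% in trdmt1 and 80% in trdmt1 trm4b. Among the 11 genotypes without an nsun5 mutation, the median was 75% and the mean 74.0% ± 7.66 (SD over genotypes, n = 11). In order of level, no neighbours among these 11 were more than 6 points apart, the widest step being that from nop2a-2 to wild type on soil. Wild type on plates was 10 points above wild type on soil, more than any of these steps, so the order within the 11 is not resolved. Alleles of 1 gene also differed. nop2b-1 was 16.7 points above nop2b-2, nsun5-2 was 27.2 points above nsun5-1, and the nop2c alleles were 2.48 points apart.

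At C2860, all 13 genotypes lay between 74% and 85%, and the nsun5 mutants were not set apart. On soil, wild type, nop2a-2, nop2b-1 and nop2c-1 each had 82%, nop2b-2 had 81.0%, nop2c-2 had 84.4%, nsun5-1 had 83% and nsun5-2 had 83.7%. In experiment 2 it was 78% in wild type, 81% in trm4a, 85% in trm4b-1, 82% in trdmt1 and 74% in trdmt1 trm4b. The lowest and the highest level of this site thus came from experiment 2, where each value is a single library. Over the 11 genotypes without an nsun5 mutation the median was 82% and the mean 81.2% ± 3.00 (SD over genotypes, n = 11). The widest step between neighbours was 4 points, from trdmt1 trm4b to wild type on plates, equal to the gap between the wild types. The 4 equal values of 82% in experiment 1 come from columns in whole percent, which can hide differences below 1 point.

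**Figure D1:**
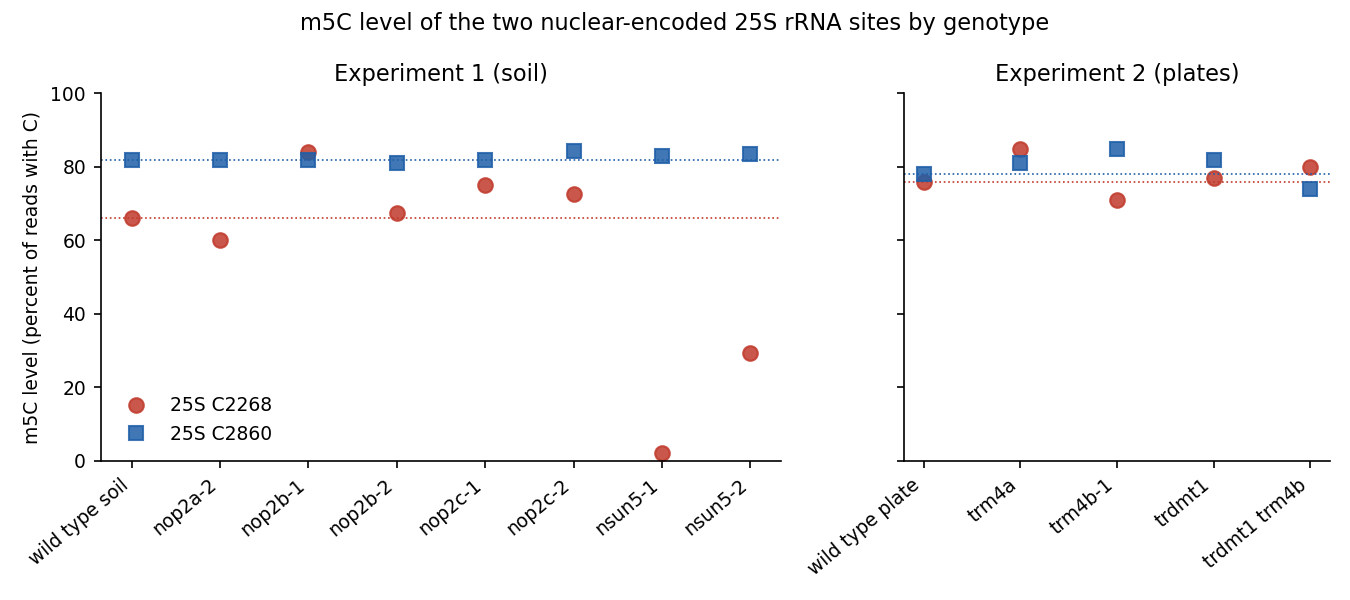
Methylation level (percent) of C2268 (circles) and C2860 (squares) of 25S rRNA in each of the 13 genotypes, with 1 value per genotype and no error bars because the tables give none. Dotted lines mark the wild type of each experiment. C2268 is at 2% and 29.2% in the nsun5 mutants, whereas C2860 lies between 74% and 85% in every genotype.

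Within a genotype both sites are read from the same libraries, so their levels were compared within genotype. Across the 11 genotypes without an nsun5 mutation, C2860 exceeded C2268 by 7.23 points on average, and it was the higher site in 8 of 11 (two-sided exact sign-flip permutation test, 2048 sign patterns, p = 0.0293). The exceptions were nop2b-1, trm4a and trdmt1 trm4b, where C2268 was higher by 2, 4 and 6 points. In experiment 1 the mean difference was 11.4 points over 6 genotypes, of which 5 had the higher level at C2860 (exact permutation test, p = 0.0625). In experiment 2 it was 2.2 points over 5 genotypes, of which 3 had the higher level at C2860 (exact permutation test, p = 0.625, where 5 values allow no p below 0.0625). The difference therefore did not pass the threshold of 0.05 within either experiment, and it lost significance when wild type on soil, nop2a-2, nop2b-2, nop2c-2 or trm4b-1 was left out (p from 0.0566 to 0.0586, mean difference from 5.75 to 6.76 points).

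On soil, each of the 5 nop2 mutants was further from wild type at C2268 than at C2860. These mutants were between 6 points below and 18 points above wild type at C2268, and between 1.03 points below and 2.42 points above at C2860. The mean absolute difference was 8.17 points at C2268 and 0.689 points at C2860, with the larger departure at C2268 in 5 of 5 mutants (two-sided exact sign-flip permutation test, p = 0.0625, the smallest that 5 mutants allow). In experiment 2 these means were alike, 4.75 points at C2268 and 4.5 points at C2860, and the departure was larger at C2268 in 1 of 4 mutants (exact permutation test, p = 1). Over all 9 mutants the means were 6.65 and 2.38 points, a difference of 4.27 points that did not pass the threshold (exact permutation test, p = 0.0703, larger at C2268 in 6 of 9). It did pass without trm4b-1 (5.05 points) and without trdmt1 (5.18 points), with p = 0.0469 for each in the exact permutation test.

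The organelle sites of the same libraries give a scale for these spreads. Over the same 11 genotypes the SD was 7.66 points at C2268 and 3.00 points at C2860, whereas it lay between 1.07 and 2.00 points at the 3 chloroplast sites and was 5.93 points at mitochondrial C1586 and 8.47 points at mitochondrial C960. The last value rests on nop2b-2, a single library, without which it was 4.33 points, while C2268 then had 7.73 and C2860 3.16 points. In experiment 1 the SD over 6 genotypes was 8.32 points at C2268 and 1.15 points at C2860, which lay within the chloroplast range of 0.404 to 1.51 points. In experiment 2 the SD over 5 genotypes was 5.17 points at C2268 and 4.18 points at C2860, both above the mitochondrial sites (3.51 and 3.90 points) and the chloroplast sites (0.837 to 2.39 points). By SD, C2268 was thus the more variable nuclear site in each experiment. In experiment 2 this rests on 5 single libraries, and the mean departures from wild type were alike there. The place of C2860 among the organelle sites differed between the experiments. These SDs are descriptions, and whether they move with the number of reads at a site was not tested.

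The count of large differences at the nuclear sites came from C2268 alone. A limit of 10 points was used, the gap between the wild types at C2268. In experiment 1, 3 of 14 pairs of a mutant and a nuclear site were past it (nsun5-1, nsun5-2 and nop2b-1, each at C2268), against 8.16% of the 49 pairs over all 7 sites, in either direction. In experiment 2 no pair of 8 was past it, and the share over all 7 sites was 0%. No replicate test stands behind these counts.

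**Figure D2:**
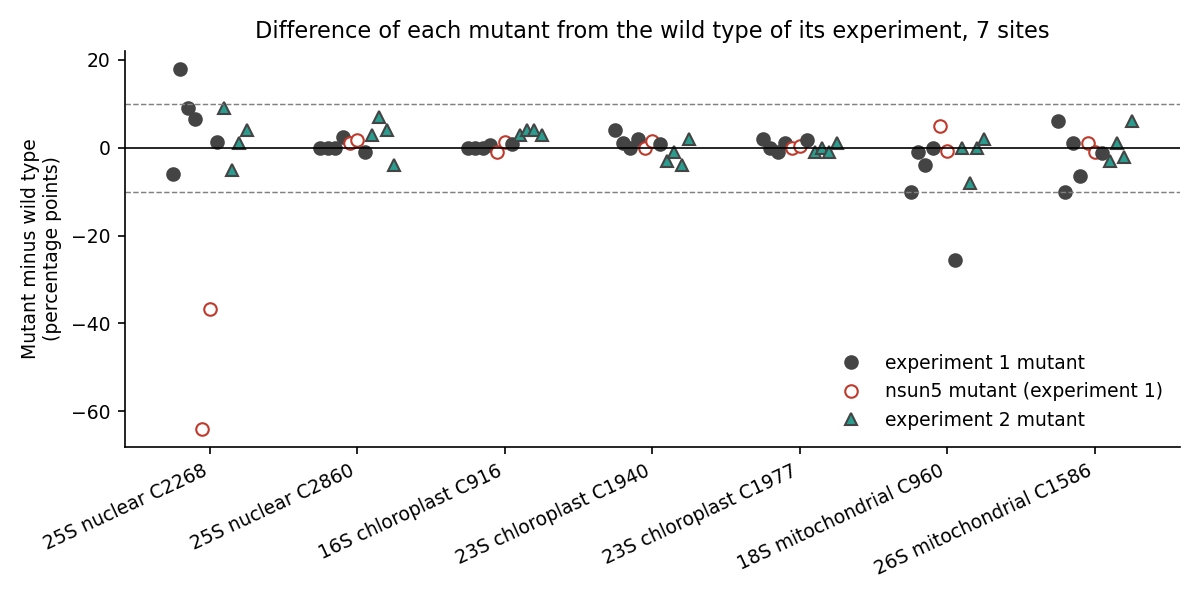
Mutant minus wild type of the same experiment (percentage points) at the nuclear sites C2268 and C2860 and at the 5 organelle sites, 1 point per mutant. Dashed lines mark 10 points in either direction. At C2268 the open circles of nsun5-1 and nsun5-2 lie at -64 and -36.8 points and nop2b-1 at 18 points, whereas no mutant passes 10 points at C2860.

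Loss of NSUN5 was then read at both sites together, since a change at C2268 and none past the threshold at C2860 does not by itself show that the sites differ. The mean level of the 6 other genotypes of experiment 1 was subtracted from that of both nsun5 alleles. The difference was -55.2 points at C2268 (28 regroupings in the two-sided exact permutation test, p = 0.0357, and 0.25 when adjusted over 7 sites). At C2860 it was 1.10 points (p = 0.25, adjusted p = 0.75 in the same exact test). The unadjusted p at C2268 is the smallest that 28 regroupings allow. A change at C2268 alone could therefore not pass the threshold once adjusted over 7 sites, and the adjusted p cannot decide whether this site changed. The gap between the sites, C2860 minus C2268, was 81 points in nsun5-1 and 54.4 points in nsun5-2, against -2 to 22 points in the 6 other genotypes. Its mean was 67.7 points in the nsun5 alleles and 11.4 points in the others, a difference of 56.3 points (exact permutation test, p = 0.0357, the smallest that 28 regroupings allow). Without either allele the difference was 43.0 or 69.6 points, and the exact test then allows no p below 0.143. The alleles themselves differed by 27.2 points at C2268 and by 0.657 points at C2860.

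For the NOP2 paralogues the site of interest was C2860. Averaged over the 5 nop2 mutants its level was 82.3%, and averaged over wild type and both nsun5 alleles it was 82.9%. The nop2 mutants differed by -0.609 points (56 regroupings in the two-sided exact permutation test, p = 0.5, and 0.688 when adjusted over 7 sites). With the wild types of both experiments in place of these 3 genotypes the difference turned to 2.28 points (adjusted p = 0.667 by the exact permutation test). Equality of the levels is not shown by a p above the threshold, and no interval can be given without replicates. The same test at C2268 is not read, because its comparison group holds both nsun5 alleles.

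The experiments were also compared over the genotypes without an nsun5 mutation. Growth medium and experiment changed together and cannot be told apart, and wild type was the only genotype in both, at 10 points more on plates at C2268 and -4 points at C2860. C2268 averaged 77.8% in the 5 genotypes of experiment 2 and 70.8% in the 6 of experiment 1, or 6.99 points more (462 regroupings in the two-sided exact permutation test, p = 0.143, and 0.25 when adjusted over 7 sites). C2860 averaged 80% and 82.2%, a difference of -2.23 points (p = 0.242, adjusted p = 0.288 in the same exact test). Neither difference passed the threshold, while the lowest adjusted p among the organelle sites was 0.0152. No relation between the levels of both sites across genotypes passed the threshold. Across the 11 genotypes Pearson's r was -0.32 (permutation p = 0.346) and Spearman's rho was -0.35 (permutation p = 0.292), and without nop2a-2 and trm4a, the genotypes farthest from the median of C2268, r was -0.38 (permutation p = 0.312). Within the 6 genotypes of experiment 1 r was 0.16 (exact permutation p = 0.833). Experiment 2 has 5 genotypes, and no correlation was computed on so few. This was the only relation between sites that was computed.

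Turning to the reference entries, the 25S rRNA was the only nuclear rRNA with listed m5C sites in *Arabidopsis*, and every 25S entry was listed with 2 sites. The 6 entries of 25S rRNA were from 3300 nt (*Caulerpa taxifolia*) to 3393 nt long (*Brassica rapa* and *Ginkgo biloba*), and *Arabidopsis* had 3375 nt. Cytosine made up 24.4% of the *Arabidopsis* entry, the least being 21.7% in *Nannochloropsis oculata* and the most 26.4% in *Triticum durum*. The number of cytosines ranged from 718 to 892, so the same 2 sites were 2.24 to 2.79 per 1000 cytosines. The deposited reference table gives the number of sites in the other species and not their positions, and the study's own list of these positions and levels was not analysed here. The deposited 25S and 18S sequences under *B. rapa* are the same as those under *G. biloba*. The lengths that the study lists for these rRNAs match them only for *G. biloba*, so values given for *B. rapa* are those of the deposited sequence, which may not be that of this species.

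The 18S entries, the rRNA of the small subunit, ranged from 1762 nt in *C. taxifolia* to 1811 nt in *B. rapa* and *G. biloba*, and the *Arabidopsis* entry (AT2G01010, on chromosome 2) had 1808 nt with 393 cytosines (21.7%). They were the least cytosine-rich of the nuclear classes, from 19.7% in *N. oculata* to 22.8% in *T. durum*, with *B. rapa* and *G. biloba* at the same rounded value. Of the 6 entries, 5 had 0 listed m5C sites, and that of *T. durum* had 6, or 14.5 per 1000 cytosines. The study proposes that the clustered sites of *T. durum* may be cytosines left unconverted because of strong secondary structure. Whether they are m5C was not tested here. The entries of *T. durum*, *B. rapa* and *G. biloba* all held 413 cytosines, so the number of sites did not follow the number of cytosines. Without coverage, a listed number of 0 does not show that a cytosine was read and found unmethylated.

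The 5.8S entries were 162 to 164 nt long, with the shorter length in *N. oculata* and *G. biloba*, and held between 38 and 49 cytosines. That of *C. taxifolia* had 2 undetermined bases. Cytosine content was lowest in *N. oculata* (23.5%) and highest in *T. durum* (29.9%), as it was for 25S and 18S rRNA. None of the 6 was listed with an m5C site. The 6 nuclear entries named 5S also had 0 sites, but 5 of them were identical to the 5.8S entry of their species and that of *N. oculata* differed from it at 1 base (A6G, counted from the 5′ end of the entry, 5.8S base first). In *Arabidopsis* the 5S entry is locus AT2G01020, a gene of 164 nt that follows the 18S gene AT2G01010 in the RefSeq gene table, and the 5.8S entry is AT3G41979, also of 164 nt. The 5S rRNA proper is therefore not represented by its own sequence, and nothing is reported on it here. Over all nuclear entries, 17 of 24 had no listed site, and the 18 listed sites were 12 in 25S rRNA and 6 in the 18S rRNA of *T. durum*.

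**Figure D3:**
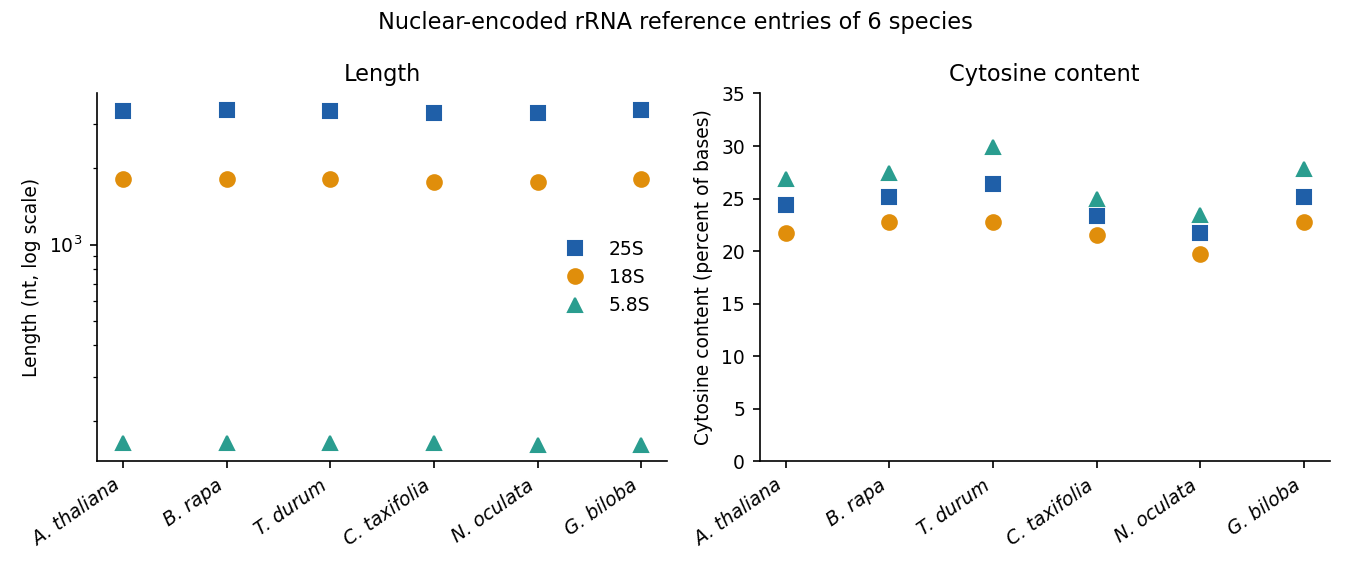
Length (nt, log axis) and cytosine content (percent of bases) of the 25S, 18S and 5.8S reference entries in 6 species, 1 point per entry. Lengths differ little within a class, and cytosine content is lowest in *N. oculata* in all 3 classes and highest in *T. durum*, for 18S by a margin lost on rounding.

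With the 5.8S sequence counted once, the *Arabidopsis* nuclear entries hold 1260 cytosines in 5347 nt, of which 2 were listed as m5C (1.59 per 1000). The chloroplast entries hold 3 sites in 1069 cytosines (2.81 per 1000) and the mitochondrial entries 2 in 1065 (1.88 per 1000). Cytosine content differed little between the compartments, at 23.6% of nuclear, 23.6% of chloroplast and 23.05% of mitochondrial bases. With so few sites these shares are given as a description only.

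The bases around the 25S sites were then set against the rest of the molecule, because nearly any position of rRNA is conserved to some degree. All 5 other species had a cytosine opposite C2268 and opposite C2860, as they did for 494 of the 823 *Arabidopsis* cytosines (60%). Taken singly, 91.1% of these cytosines were kept in *B. rapa* and in *G. biloba*, 94.4% in *T. durum*, 78.5% in *C. taxifolia* and 76.8% in *N. oculata*. The window of 10 bases on each side of C2268 was identical to *Arabidopsis* in 5 of 5 species. That of C2860 was identical in 4 of 5, and in *N. oculata* it differed by C2856T (*Arabidopsis* base first, numbered along *Arabidopsis* 25S rRNA). Of the 817 windows of this size around a cytosine, 40 were identical in all 5 species (4.9%). For single species, such windows were identical in 28.8% of cases for *B. rapa* and *G. biloba*, 33.5% for *T. durum*, 15.8% for *C. taxifolia* and 14% for *N. oculata*. These counts over 5 species hold the shared 25S sequence of *B. rapa* and *G. biloba* under both names, so they rest on 4 distinct entries. The 5.8S entries of these species differ at 9 aligned bases. All 20 nuclear entries of other species are marked as guided by the *Arabidopsis* sequence, at the sites and over the background alike. How far this raised the identity was not tested.

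The unbroken run of identical bases around C2268 was 163 nt in the sequence shared by *B. rapa* and *G. biloba*. It was 206 nt in *T. durum*, 46 nt in *C. taxifolia* and 163 nt in *N. oculata*. Around C2860 it was 213 nt in the shared sequence and in *T. durum*, 77 nt in *C. taxifolia* and 29 nt in *N. oculata*. In bins of 100 nt along 25S rRNA, the mean identity of the 4 distinct entries ranged from 77.5% to 97.0%, with a median of 87.5%. The bin with C2860 ranked the highest of 33 full bins (97.0%) and the bin with C2268 the second (95.5%). In these entries, both sites thus lie in the bins with the highest mean identity to *Arabidopsis*, and no test was made of this. The margin at C2268 is small, since the bins 1201 to 1300 and 2601 to 2700 had 94.75%. The least similar entry was at 82% in the bin with C2268, below the 90% and 88% of these bins. Over the whole of 25S rRNA, 91.6% of aligned bases were identical in the sequence shared by *B. rapa* and *G. biloba*. The share was 92.4% in *T. durum*, 85.7% in *C. taxifolia* and 86.7% in *N. oculata*.

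**Figure D4:**
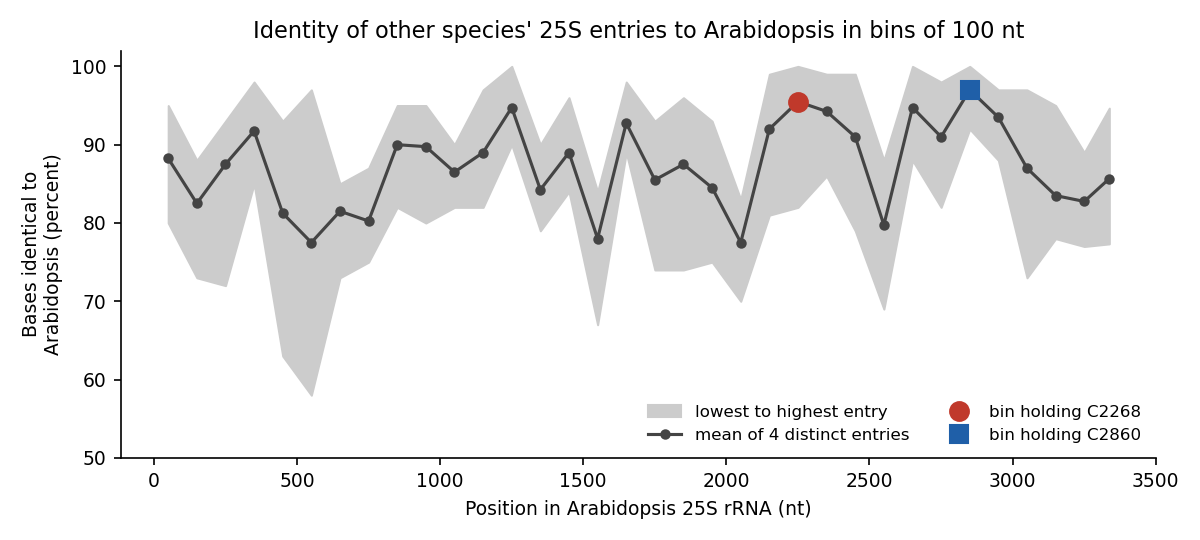
Percent of bases identical to *Arabidopsis* 25S rRNA in bins of 100 nt (the last bin is shorter), as the mean of the 4 distinct entries of other species (line) and their range (grey band), against position in the rRNA. The marked bins with C2268 (95.5%) and C2860 (97.0%) are the 2 highest by this mean.

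The large subunit rRNAs of the organelles have counterparts of both nuclear positions, which are shown with the aligned base in capitals to compare it with the nuclear site.
C2268, nuclear 25S: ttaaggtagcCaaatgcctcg
position 1950, chloroplast 23S: ctaaggtagcGaaattccttg
position 1559, mitochondrial 26S: ctaaggtagcGaaattccttg
C2860, nuclear 25S: tttgatccttCgatgtcggct
position 2519, chloroplast 23S: tttggcacctCgatgtcggct
position 2112, mitochondrial 26S: tttggcacctCgatgtcgact
The counterpart of C2268 is a guanine in both organelle rRNAs, in a window with 17 of 21 bases identical to the nuclear one. The counterpart of C2860 is a cytosine in both, with 17 of 21 identical bases in the chloroplast and 16 of 21 in the mitochondrion, and neither is among the listed sites. The nearest listed sites are chloroplast C1940, which lies 10 nt before the counterpart of C2268, and mitochondrial C1586, which lies 27 nt after it. The table prints this last position with an extra 0 at its end, beyond the end of the 26S rRNA, and the distance rests on reading it as C1586. The text of the study names a different position for its 26S site, which lies before the counterpart of C2268 and not after it. This conflict was not resolved here, so the distance of the mitochondrial site is uncertain. On the reading used, none of the organelle sites is at the position of a nuclear site, although chloroplast C1940 is 10 nt away in the alignment.

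Reads were mapped by the authors to references in which every cytosine had been replaced by thymine, so sequences that become alike on conversion could not be told apart. For 25S and 18S rRNA, 100% of 50-nt windows occurred once among the 11 *Arabidopsis* entries after conversion, windows over C2268 and C2860 included. For 5.8S rRNA this share was 0% with the duplicate 5S entry present and 100% without it. A read of 5.8S rRNA thus had 2 equal targets in the deposited set of references.

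The study also read C2268 by a restriction digest, whose primer is shown to make the link to the bisulfite data clear. The sequences span positions 2236 to 2276, with the base of C2268 in capitals, and the capital in the primer is its mismatch.
25S rRNA: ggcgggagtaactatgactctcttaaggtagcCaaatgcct
converted, unmethylated: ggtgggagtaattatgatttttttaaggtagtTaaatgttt
converted, methylated: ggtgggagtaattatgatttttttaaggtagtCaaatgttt
forward primer: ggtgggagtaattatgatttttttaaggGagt
The primer of 32 nt ends at position 2267, directly before the site, and matches the converted sequence but for T29G (converted base first, counted from the 5′ end of the primer). This base together with a cytosine kept at C2268 makes gagtC, a match to GANTC, the palindromic site of HinfI. The motif occurs 22 times in unconverted 25S rRNA and cannot occur in a fully converted strand, which has no cytosine. With cytosine kept at C2268 and C2860 it occurs 0 times without the primer base and 1 time with it. The digest itself gave no values in the tables used here.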

How the data were processed

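RBS-seq libraries of 13 genotypes were grouped by genotype, medium and experiment as labelled. The values deposited by the authors are percent. Trimmed reads were mapped by them with CLC Genomics Workbench (version not given in the sources used) to rRNA references with every cytosine changed to thymine, and the level is the share of cytosine among cytosines and thymines at a position. The authors kept sites with at least 5 reads and 20% methylation. They averaged replicates in experiment 1, and 5 of its 8 columns are in whole percent. Reads with many kept cytosines may map less well to such references, which could lower a level and was not tested. Total reads per library are listed by the study, but depth at a site is unknown, so no interval or floor was computed. A table deposited by the authors holds rRNA sequences of 6 species with their number of m5C sites.

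Differences were tested by two-sided exact permutation or sign-flip tests over genotype values with Benjamini-Hochberg adjustment over 7 sites, and correlations by permutation (100000 resamples from 10 values on). The tests were checked on simulated data. Sequences were aligned globally with Biopython (match 2, mismatch -2, gap opening -5, extension -0.5, free end gaps). Both 25S sites were named with every value, organelle sites as ranges, and all nuclear entries were accounted for. Alternatives were the logit scale (offset 0.5 points), other comparators and limits, leaving out genotypes, other windows, and a gap opening of -10. Members, lists and tests were chosen with earlier results of these data known. Locus names come from RefSeq (TAIR10.1), without coordinates, since the labels name another release and no genome was used. Tests were run in SciPy 1.17.1 and NumPy 2.4.6 under Python 3.11.15, alignments in Biopython 1.88 and plots in matplotlib 3.10.9.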

Additional observations from a re-analysis of the deposited data

Results flagged for a closer look

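In the plate-grown libraries the trm4b-1 allele can be compared with wild type and, in the double mutant, with trdmt1. At both 25S sites these steps had opposite signs. C2268 was 71% in trm4b-1 and 76% in wild type, a step of -5 points, but 80% in trdmt1 trm4b and 77% in trdmt1, a step of 3 points, so the steps differed by 8 points. For C2860 the levels were 85% and 78%, a step of 7 points, and then 74% and 82%, a step of -8 points, so the steps differed by -15 points. Each value is a single library, and the difference between the steps was not tested.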

How the results depend on the processing

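No paired analysis was possible because each genotype has 1 deposited value and replicates cannot be matched. Of 142 alternatives to 29 values, 125 left the value on its side of the threshold or close to the main value. This count includes the nop2 test at C2268, which is not read, and tests with too few regroupings to pass the threshold. It is therefore no measure of how robust the results are. The difference between the 25S sites of 7.23 points lost significance in experiment 1 only (11.4 points) and in experiment 2 only (2.2 points), and leaving out each genotype gave 5.75 to 8.55 points (exact permutation p from 0.0156 to 0.0586). The spread of the sites over mutants lay between 2.55 and 5.18 points with each mutant left out. The nsun5 gap between the sites lay between 43.0 and 69.6 points, losing significance without nsun5-1 or nsun5-2, where 7 regroupings are left. The nop2 difference at C2860 turned to 2.28 points with the wild types of both experiments as comparators, and the correlation between the sites turned to 0.16 in experiment 1. With a limit of 5 points, 6 pairs of experiment 1 and 2 of experiment 2 were past it at the nuclear sites, and against the mean of both wild types 1 pair of experiment 2 was. Windows of 5 bases on each side gave the same counts of identical species as 10, and windows of 20 gave 4 for C2268 and 3 for C2860. With a gap opening of -10 the organelle rRNAs could not be aligned to 25S rRNA at either site, whereas the best match without gaps, added after the data were seen, gave the positions reported. The SD of mitochondrial C960 without nop2b-2, also added later, was 4.33 points. Unknown depth at a site limits every level. The study added an unmethylated control RNA to measure conversion, and the 2% in nsun5-1 was not set against it here. Whether this 2% differs from incomplete conversion was not tested.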

Other observations

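The 18S rRNA of *T. durum*, the nuclear entry with 6 listed m5C sites, also holds the longest perfect inverted repeat around a loop of 4 nt in the 6 entries of 18S rRNA. It has 9 base pairs at positions 1700 to 1721, all of them between G and C, and holds a run of 5 cytosines, which no other land plant entry has. It is shown beside the aligned stretches of 2 other species. Counting only pairs of A with T and of G with C, the stem is 2 base pairs in *Arabidopsis* and 6 base pairs in the sequence shared by *B. rapa* and *G. biloba*. Pairs of G with U, which RNA can form, were not counted. In the stretch shown the *Arabidopsis* stem is broken only at such pairs, and it spans 9 base pairs, as in *T. durum*, when they are allowed. *Arabidopsis*, *B. rapa* and *G. biloba* have 0 listed sites in 18S rRNA.
*T. durum*, positions 1700 to 1721: cgggggcggttcgccgcccccg
*A. thaliana*, positions 1697 to 1718: cgtgggtggttcgccgcccgcg
*B. rapa*, positions 1700 to 1721: cgacggcggttcgccgccggcg
The entry of *N. oculata* has a run of 5 cytosines elsewhere, with 0 listed sites. The tables used here give no positions for the sites of *T. durum*. The study places them in this stretch and mentions its secondary structure, so the repeat was looked for with that known and is a description only, with no test.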
